A study of Mus musculus with 2 samples.

Results

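Endothelial cells line the blood vessels that grow into the embryonic brain. In 2 single-cell RNA-seq libraries of mouse dorsal telencephalon, 80 of 12936 kept cell barcodes met a marker rule for this kind of cell. They were 26 of 5453 in replicate 1 and 54 of 7483 in replicate 3. The data of 4 of these members went against the label, as given below, and they were kept. Members were chosen by measured values, not by an annotation. A barcode was kept with 1500 to 60000 unique molecular identifiers (UMIs, 1 per captured RNA molecule) and under 10% of them mitochondrial, and it was taken as endothelial when the raw UMIs of Cldn5, Pecam1, Flt1, Kdr and Cdh5 summed to at least 8 and to more than those of the pericyte genes Rgs5, Pdgfrb, Kcnj8, Abcc9 and Vtn. At most 3 UMIs of the neuronal genes Neurod2 and Neurod6 were allowed. The 5 endothelial genes are called the rule genes hereafter, and their levels, as well as the share of cells they select, describe the choice and were not tested.

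Brain vessels sprout from a plexus around the neural tube, led by tip cells that follow VEGF and are restrained by Notch signalling in the cells behind them. Wnt ligands from the neural tissue act on Frizzled receptors of the endothelium, and this signal induces the blood-brain barrier, in which tight junctions seal the cells and selective transporters carry glucose, amino acids and lipids. Pericytes share the vessel's basement membrane, and fibroblasts of the meninges surround the larger vessels at the brain surface.

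Both libraries carry the labels EoMltt3, E14.5 and WT, that is wild-type embryos of embryonic day 14.5, and the series describes them as control embryos of an EomesMllt3 line which its title calls an Eomes-Cre line, with no allele or agent named for these samples. The source is labelled brain hemispheres, while the protocol names the dorsal telencephalon, dissociated with papain and loaded on 10x Genomics 3' v3.1 chips, and the study's methods give the C57BL/6J background. There was 1 group only, so no treatment or genotype could be compared, and the comparisons below are between cell classes of the same 2 libraries. The labels do not say how many embryos went into a library, and p-values therefore measure the spread between these 2 libraries.

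The libraries held 6163 and 8870 barcodes, with 64182006 and 93295807 UMIs in total and medians of 9802 and 9754 UMIs per barcode. The filters removed 710 and 1387 barcodes. Kept barcodes of the libraries shared 17 cell barcode names and the endothelial members shared 0. The doublet caller ranked 269 and 531 barcodes highest, of which 0 and 3 were members, and these were kept except where stated.

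Endothelial members made up 0.477% of kept barcodes in replicate 1, with Wilson 95% limits of 0.326 and 0.698, and 0.722% in replicate 3, with limits of 0.554 and 0.940, which cover counting error only. They held 540491 and 805231 UMIs, with medians of 17035 and 10943 UMIs per cell. For comparison, a pericyte-gated class (at least 8 UMIs of the pericyte genes above and at least as many as of the rule genes) held 80 and 128 barcodes. A meningeal-gated class, chosen by at least 8 UMIs of Col1a1, Col1a2, Col3a1, Dcn and Lum, and by more of these than of the pericyte or rule genes, held 21 and 73 barcodes. The limit on Neurod2 and Neurod6 held for both, and all other kept barcodes numbered 5326 and 7228.

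The label was checked against 18 surface and signalling genes of endothelium that the rule did not use, among them Icam2, Ecscr, Cd93, Clec14a, Robo4, Egfl7 and Ramp2. Their summed level in CPM, UMIs scaled to a total of 1000000, was 5728 and 4375 in replicates 1 and 3 of the endothelial class. It was 459.6 and 535 CPM in pericyte-gated barcodes, 541 and 510.5 CPM in meningeal-gated barcodes, and 29.1 and 40.9 CPM in all other barcodes. All 18 genes had UMIs in the endothelial class. As the members were chosen by expression of the same cells, these levels describe the class and are no independent support for its identity.

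Members were not alike in how well the label was met. In 62 members (23 and 39) the rule genes gave 25 to 336 UMIs, with a median of 76, and the check list 27 to 280 UMIs, with a median of 82. All 62 had UMIs of Cldn5, the main claudin of brain endothelial tight junctions, which supplied 46.8% of their rule-gene UMIs. The remaining 18 members (3 and 15) had 8 to 16 UMIs of the rule genes. Of these, 13 were shallow barcodes of 1737 to 3903 UMIs with a median of 2.29% mitochondrial UMIs, in which Flt1, a VEGF receptor, gave 62.2% of rule-gene UMIs and Cldn5 6.29%. Their check-list level was 35.0 UMIs per 10000, beside 51.8 in the 62 members above.

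In 4 further members, all of replicate 3, the data went against the label. They held 8516 to 25345 UMIs but only 1 to 7 UMIs of the check list, 0 of Cldn5 and 6 to 21 of 8 radial glia markers, and 88.6% of their rule-gene UMIs were Kdr, another VEGF receptor. The last of the 18 had 5803 UMIs, 5 of Cldn5 and 26 of the check list. Across all members, 8 (3 and 5) carried at least 8 UMIs of the pericyte, meningeal, myeloid, radial glia, neuron or interneuron markers. Gene counts of whole comparisons were recomputed without them, and each that moved by more than 1.5 times is given both ways. Counts by gene list were not recomputed. The choice of these markers and of leaving these members out was made after seeing the data. Erythroid markers were not part of it, and 13 members, all of replicate 3, held 8 to 66 UMIs of them and were kept throughout.

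**Figure D1:**
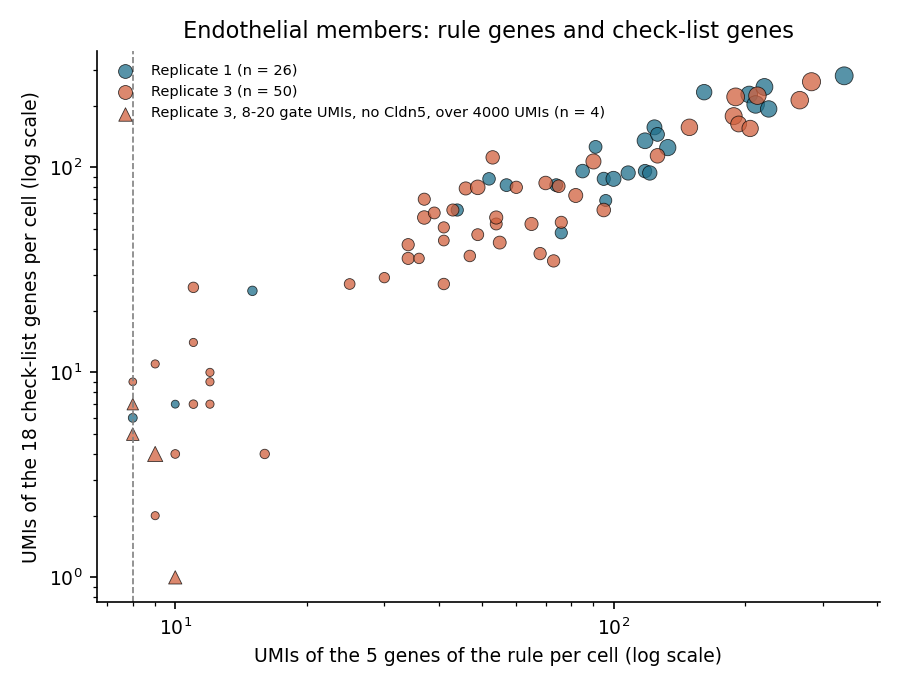
UMIs of the 18 check-list genes (vertical, log scale) against UMIs of the 5 rule genes (horizontal, log scale) in each endothelial member, with replicate by colour, symbol area rising with the square root of total UMIs, and the dashed line at the minimum of 8. The 62 members with 25 or more rule-gene UMIs form a band of 27 to 280 check-list UMIs, and the 4 triangles without Cldn5 lie at 1 to 7.

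Just below the minimum, 8 barcodes of replicate 1 and 26 of replicate 3 had 5 to 7 UMIs of the rule genes, with medians of 7 and 6 check-list UMIs, and 7 and 8 of these had at least as many pericyte UMIs. Just above it, 3 and 10 barcodes had 8 to 10 UMIs, of which 2 and 8 were members, with medians of 7 and 4. The check list thus had like medians on both sides of the minimum. A further 4 barcodes of replicate 3 with at least 21 rule-gene UMIs were left out by the limit on Neurod2 and Neurod6.

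Markers of other classes were low in the endothelial sums. Pericyte markers outside the rule came to 77.7 and 106 CPM, against 1885 and 1323 CPM in pericyte-gated barcodes, with Cspg4, Higd1b and Ndufa4l2 at 0. Of 12 myeloid markers, 4 had any UMI, at 14.8 and 11.2 CPM in all, and C1qa, C1qb, C1qc, P2ry12, Ptprc, Tyrobp, Pf4 and Lyve1 were at 0. The meningeal list summed to 74.0 and 67.1 CPM, with Aldh1a2, Foxd1, Col6a1 and Postn at 0. The same list came to 1002 and 1045 CPM in pericyte-gated barcodes, close to the 1348 and 988 CPM of meningeal-gated barcodes. The 2 gated classes were therefore not apart on this list, and a comparison with pericyte-gated barcodes may not be one with pericytes alone. The 8 radial glia markers summed to 27.8 and 149 CPM against 1807 and 1681 in all other barcodes. The neuron list gave 226 and 142 CPM against 4685 and 4003, the interneuron list 64.8 and 11.2 CPM against 238 and 54.7, and the lymphatic pair Prox1 and Pdpn 3.70 and 26.1 CPM. The 8 erythroid genes stood at 88.8 and 435 CPM, beside 94.1 and 386 CPM in pericyte-gated and 107 and 370.1 CPM in meningeal-gated barcodes, a like low level in all 3 classes that differed between the libraries.

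A share of cells with a UMI depends on depth, so cells were thinned to 3000 UMIs each. Cldn5 was then detected in 96.0% and 86.7% of endothelial cells, against 0.414% and 0.762% of neuron-gated barcodes (at least 10 UMIs of Neurod2 and Neurod6), which should lack it. Slc2a1, the glucose transporter GLUT1, was detected in 92.0% and 80.0% against 2.11% and 2.74% of neurons. For Mfsd2a, the lipid transporter of the barrier, the shares were 40.0% and 28.9% against 1.86% and 2.11%, and for the connexin Gja4 36.0% and 15.6% against 0.0829% and 0.139%. Without thinning, Cldn5 had a UMI in 25 of 26 and 44 of 54 members, Slc2a1 in 25 and 47, Mfsd2a in 22 and 26, and Gja4 in 13 and 15. Slc2a1, Mfsd2a and Gja4 lay above the neuronal share in both libraries, Cldn5 being a rule gene, and 1 and 9 members were too shallow to be thinned.

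UMIs were then summed per class and replicate and compared with edgeR's quasi-likelihood test over 11310 genes, with the 17 genes used to choose the classes left out. The 3 comparisons share the endothelial sums and are not independent of each other. Genes that vary with the rule genes are expected among the calls, since those genes chose the cells. The filter on low counts also kept genes that passed it in the endothelial sums alone. Such genes, near 0 elsewhere, were tested because they were high in this class, while genes low in every class dropped out. Counts of list genes that were higher are therefore partly set by the filter. Against pericyte-gated barcodes 1266 genes (11.2%) were higher and 1387 (12.3%) lower at an adjusted p under 0.05. Against meningeal-gated barcodes 1296 (11.5%) were higher and 1309 (11.6%) lower, and against all other barcodes 2486 (22.0%) were higher and 2675 (23.7%) lower. The median log2 fold change over all tested genes was -0.06, -0.06 and -0.09 in these comparisons. The shares of called genes given here are the background for the list counts below.

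Junction genes were higher together. All 9 tested genes of the junction list, which holds transmembrane and scaffold proteins of tight and adherens junctions, were higher in each of the 3 comparisons, with median log2 fold changes of 3.14, 2.30 and 3.44. Ocln, the tight junction protein occludin, was at 92.5 and 96.9 CPM in replicates 1 and 3 of the endothelial class and at 0.148 and 1.18 CPM in all other barcodes, 6.90 (SE 0.70, adjusted p = 2.83e-05) on the log2 scale. Esam, an adhesion molecule of endothelial junctions, was at 525 and 469 CPM against 64.5 and 52.1 in pericyte-gated barcodes, 3.14 (SE 0.28, adjusted p = 5.80e-05) on the log2 scale. The scaffold Tjp1 (ZO-1) was at 736 and 722 CPM in endothelial, 301 and 139 in pericyte-gated and 72.9 and 75.6 in other barcodes. The endothelial values of these genes lay above those of every other class in both libraries.
F11r and Lsr, which take part in cell contacts of epithelia and endothelia, were at 131 and 95.6 and at 168 and 114 CPM. Marveld2, or tricellulin, was low at 22.2 and 18.6 CPM and was higher against meningeal-gated barcodes by 2.30 (SE 0.69, adjusted p = 0.0378) on the log2 scale. Cgn, Cldn1 and Cldn12 were too low to be tested, at 0 to 2.48 CPM in the endothelial sums.

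Most barrier transporters were higher too. Of 18 tested genes, 15 were higher than in pericyte-gated, 16 than in meningeal-gated and 16 than in all other barcodes, none was lower, and the median log2 fold changes were 4.38, 4.40 and 4.61. Slc2a1 was at 992 and 744 CPM against 13.4 and 14.3 in pericyte-gated, 27.6 and 21.8 in meningeal-gated and 9.40 and 12.7 in other barcodes, with log2 fold changes of 5.98 (SE 0.28, adjusted p = 5.30e-06), 5.27 (SE 0.29, adjusted p = 1.29e-05) and 6.28 (SE 0.26, adjusted p = 3.00e-07). Slc7a5 and Slc3a2, the light and heavy chain of the large neutral amino acid transporter, were at 777 and 599 CPM and at 905 and 781 CPM, with log2 fold changes against all other barcodes of 6.21 (SE 0.23, adjusted p = 1.87e-07) and 4.29 (SE 0.19, adjusted p = 3.04e-07). Slc38a5, a glutamine transporter, reached 559 and 446 CPM and was nearly absent elsewhere, at 0 and 0.573 CPM in pericyte-gated and 0.329 and 0.706 CPM in other barcodes.
In both libraries the endothelial class was the highest of the 4 for each of these genes. Of the efflux pumps, Abcb1a (P-glycoprotein) was at 237 and 222 CPM against 1.79 and 1.15 in pericyte-gated barcodes, while Abcg2 was at 379 and 436 against 81.5 and 80.2. Mfsd2a, which carries lysolipids and restrains transcytosis, was at 253 and 108 CPM and differed by 4.43 (SE 0.37, adjusted p = 8.87e-06) from all other barcodes. Slc40a1, the iron exporter ferroportin, and Tfrc, the transferrin receptor, were both higher, at 228 and 212 and 355 and 134 CPM. Of the 18 tested transporters, 12 were lower in replicate 3 than in replicate 1 and 6 higher, with the largest ratio for Tfrc at 2.65. Replicate 3 held 10 of the 13 shallow members, whose part in this was not tested.
Not every transporter was called. The monocarboxylate transporters Slc16a1 and Slc16a4 passed in no comparison under the settings used throughout, with Slc16a1 at 3.70 and 6.21 CPM beside 11.8 and 13.9 in other barcodes and an adjusted p of 0.0590, and Slc16a4 at 16.7 and 24.8 beside 9.17 and 8.61 with 0.0577. With the replicate block Slc16a1 was lower than in all other barcodes (adjusted p = 0.0438), as with no filter on low counts (0.0421). Slc16a4 was higher than in all other barcodes with at least 3000 UMIs per barcode (adjusted p = 0.0470), with no filter on low counts (0.0266) and without the 8 members with markers of another class (0.0493). Slco1a4 and Slc19a3 were too low to be tested.

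**Figure D2:**
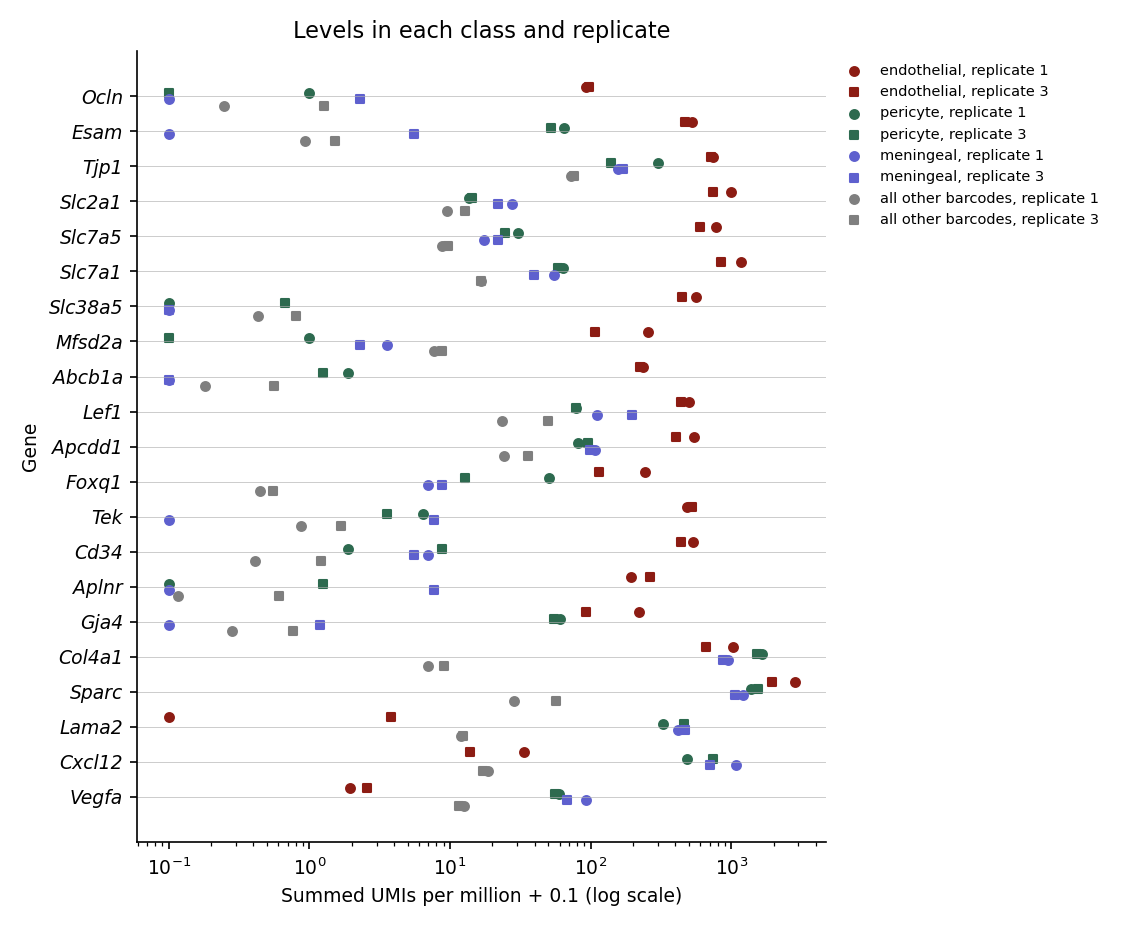
Summed level in CPM plus 0.1 (horizontal, log scale) of 21 genes in each class, with a circle for replicate 1 and a square for replicate 3. The endothelial points of the junction, transporter, Wnt target and vessel genes lie to the right of all other classes, and those of Lama2, Cxcl12 and Vegfa lie to the left of the pericyte-gated and meningeal-gated points.

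Promoters are shown for genes that were high together: Cldn5 as the leading rule gene and, from each of 4 lists, the gene with the largest fold change against all other barcodes among those higher in all 3 comparisons that have exactly 1 promoter in the table. Each sequence is from RefSeq on GRCm38.p6, the build called mm10 in the labels, spans 250 bases before to 50 after the annotated start on the plus strand, and reads 5′ to 3′. Capitals mark the letters AGGAAG as a core of ETS factor sites, CTTTGA for TCF/LEF factors and CACCC for KLF factors on either strand, where the reverse strand reads CTTCCT for ETS, TCAAAG for TCF/LEF and GGGTG for KLF.
Cldn5 (chr16:18776597-18776896): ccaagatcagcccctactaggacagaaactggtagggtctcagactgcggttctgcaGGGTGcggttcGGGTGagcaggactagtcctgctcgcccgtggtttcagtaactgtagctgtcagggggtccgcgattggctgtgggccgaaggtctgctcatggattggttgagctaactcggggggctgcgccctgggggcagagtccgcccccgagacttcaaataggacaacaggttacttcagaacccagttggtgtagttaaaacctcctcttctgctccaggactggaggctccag
F11r (chr1:171437311-171437610): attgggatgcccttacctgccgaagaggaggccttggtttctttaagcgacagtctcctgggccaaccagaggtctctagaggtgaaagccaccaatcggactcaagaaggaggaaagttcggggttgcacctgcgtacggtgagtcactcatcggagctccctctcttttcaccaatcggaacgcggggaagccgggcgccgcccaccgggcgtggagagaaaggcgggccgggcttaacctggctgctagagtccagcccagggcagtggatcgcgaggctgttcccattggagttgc
Slc38a5 (chrX:8271131-8271430): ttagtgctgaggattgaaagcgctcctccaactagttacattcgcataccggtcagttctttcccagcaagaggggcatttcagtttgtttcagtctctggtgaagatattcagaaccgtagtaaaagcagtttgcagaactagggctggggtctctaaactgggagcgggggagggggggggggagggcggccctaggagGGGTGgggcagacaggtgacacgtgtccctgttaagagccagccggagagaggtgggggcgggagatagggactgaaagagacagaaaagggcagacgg
Klf2 (chr8:72318812-72319111): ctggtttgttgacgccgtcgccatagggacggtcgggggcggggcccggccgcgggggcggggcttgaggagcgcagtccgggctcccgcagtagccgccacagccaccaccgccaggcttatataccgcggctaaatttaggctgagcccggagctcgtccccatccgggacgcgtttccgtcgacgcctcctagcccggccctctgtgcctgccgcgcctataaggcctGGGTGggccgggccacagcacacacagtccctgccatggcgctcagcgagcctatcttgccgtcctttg
Adgrl4 (chr3:151437632-151437931): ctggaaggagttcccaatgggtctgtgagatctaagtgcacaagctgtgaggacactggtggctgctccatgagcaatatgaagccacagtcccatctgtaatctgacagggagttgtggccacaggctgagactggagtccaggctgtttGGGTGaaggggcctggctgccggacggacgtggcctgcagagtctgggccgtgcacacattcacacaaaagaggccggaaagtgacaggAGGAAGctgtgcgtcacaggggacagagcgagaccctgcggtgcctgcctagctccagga
The ETS letters occurred once, in Adgrl4, and are in 35.4% of all 32851 promoters of the table. The TCF/LEF letters occurred in 0 of the 5, against 16.0% of all, and the KLF letters in 4 of the 5, against 57.5% of all. A match here is a description of the letters and not a binding site. Promoters were in the table for 6 of 9 junction, 12 of 15 transporter, 9 of 16 transcription factor and 9 of 16 check-list genes that were higher in all 3 comparisons.

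Genes of caveolae and of leaky vessels were also higher. Of 8 tested genes, 7 were higher than in pericyte-gated, 7 than in meningeal-gated and 8 than in all other barcodes. Cav1, the coat protein of caveolae, was at 179 and 178 CPM against 8.06 and 4.58 in pericyte-gated barcodes (4.90, SE 0.45, adjusted p = 6.40e-05 on the log2 scale). Plvap, which forms diaphragms in permeable endothelium and is known to fade as the barrier matures, was at 29.6 and 27.3 CPM, against 4.48 and 4.58 CPM in pericyte-gated barcodes (2.65, SE 0.61, adjusted p = 0.0125). Vwf, the von Willebrand factor stored by endothelium, was uneven, at 168 and 45.9 CPM. Cavin2 was called only against all other barcodes, with an adjusted p of 0.213 against pericyte-gated and 0.111 against meningeal-gated barcodes.

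For Wnt signalling, receptors and targets are given in turn. Among 8 tested receptor and co-receptor genes, 4 were higher than in pericyte-gated, 3 than in meningeal-gated and 5 than in all other barcodes. Over all tested genes 11.2%, 11.5% and 22.0% were higher. The median log2 fold changes of the 8 genes were 0.53, 0.61 and 1.08. Fzd4, the Frizzled receptor of retinal and brain vessels, was at 40.7 and 38.5 CPM against 3.58 and 8.60 in pericyte-gated barcodes (2.63, SE 0.49, adjusted p = 0.00351), and Fzd6 at 148 and 114 against 38.5 and 37.2 (1.81, SE 0.35, adjusted p = 0.00406), values in brackets being log2 fold changes. Tspan12, a partner of Fzd4, was at 72.2 and 69.5 CPM and higher in all 3 comparisons. Adgra2 (Gpr124) and Reck, which together present Wnt7 ligands, were not called against the perivascular classes. Adgra2 was at 62.9 and 44.7 CPM beside 48.4 and 33.2 in pericyte-gated and 37.9 and 38.1 in meningeal-gated barcodes, with adjusted p of 0.469 and 0.425, and was higher only against all other barcodes (6.05, SE 0.42, adjusted p = 2.47e-06). Reck was called in no comparison.

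All 13 tested genes of the Wnt target and effector list were higher than in all other barcodes, whereas 7 were higher and 1 lower against pericyte-gated barcodes and 8 were higher against meningeal-gated barcodes. The median log2 fold changes were 1.36, 1.72 and 3.97. Lef1, a nuclear effector of the pathway, was at 499.5 and 436 CPM against 78.8 and 79.1, 110.3 and 196 and 23.2 and 49.4 in the other classes, and Apcdd1, an inhibitor induced by the pathway, at 546 and 404 against 81.5 and 96.3, 107 and 98.0 and 24.2 and 36.0. Their log2 fold changes against pericyte-gated barcodes were 2.60 (SE 0.36, adjusted p = 6.91e-04) and 2.44 (SE 0.24, adjusted p = 1.01e-04). The transcription factors Foxq1 and Sox17, known as Wnt-dependent genes of barrier endothelium, were at 242 and 114 and at 137 and 130.4 CPM.
Both libraries placed these genes above every other class. Axin2, the general feedback target of the pathway, was the exception, with 40.7 and 39.7 CPM in endothelial against 78.8 and 75.1 in pericyte-gated and 7.28 and 11.4 in other barcodes, a log2 difference of -0.90 from the first (SE 0.28, adjusted p = 0.0442) and of 2.09 from the last (SE 0.29, adjusted p = 2.39e-04). DESeq2 gave the first an adjusted p of 0.0501. Nkd1 and Tnfrsf19, also feedback or target genes, were close to the perivascular classes, at 285 and 149 beside 139.8 and 230.4 CPM and 185 and 143 beside 151 and 164 CPM in pericyte-gated barcodes.

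**Figure D3:**
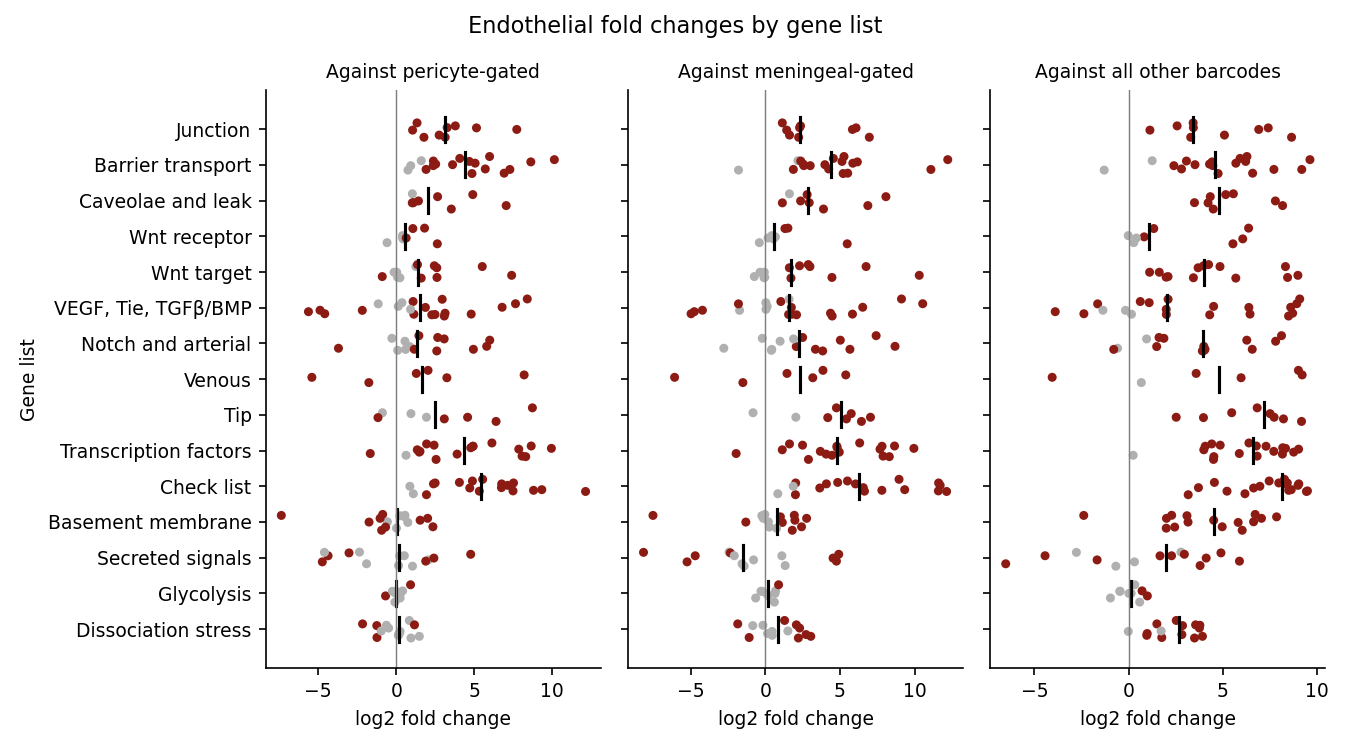
Log2 fold change of each tested gene (horizontal) by gene list (vertical) against pericyte-gated, meningeal-gated and all other barcodes, with genes at an adjusted p under 0.05 in red, others in grey, and a black bar at each list's median. Genes with 0 UMIs in the second class are drawn at the fitted value, which depends on the prior count.

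Receptors for VEGF, angiopoietin and TGFβ/BMP were mostly higher, and several ligands were lower. Of 20 tested genes of this list, 12 were higher and 4 lower than in pericyte-gated, 11 and 4 than in meningeal-gated, and 14 and 3 than in all other barcodes. Tek (Tie2), the angiopoietin receptor, was at 483 and 527 CPM against 6.27 and 3.44 in pericyte-gated barcodes (6.79, SE 0.46, adjusted p = 1.57e-05 on the log2 scale), and Ptprb, the phosphatase that dampens it, at 629 and 365 against 0.896 and 1.72 (8.40, SE 0.49, adjusted p = 9.70e-06). Tie1 was at 191 and 127 CPM. Flt4 and Nrp2, receptors of VEGF-C, were higher in all 3 comparisons.
The BMP9 receptor Acvrl1, its partner Eng and the type II receptor Tgfbr2 were at 129.5 and 86.9, 405 and 231 and 303 and 297 CPM, each higher in all 3 comparisons. Id1, a BMP target, was higher than in pericyte-gated barcodes (2.28, SE 0.32, adjusted p = 7.02e-04), while Id3 was similar, at 431 and 389.9 beside 341 and 429 CPM with an adjusted p of 0.806. Nrp1 was higher than in both perivascular classes but not than in all other barcodes, where it stood at 336 and 324 CPM beside 385 and 349.
Among the ligands, Vegfa, Angpt1, Pgf and Angpt2 were lower than in pericyte-gated barcodes. Vegfa was at 1.85 and 2.48 CPM in endothelial, 59.1 and 55.6 in pericyte-gated and 93.1 and 67.5 in meningeal-gated barcodes, lower than in pericyte-gated barcodes (adjusted p = 6.89e-05). Angpt1, which activates Tek, was at 1.85 and 1.24 against 104 and 60.2 CPM in pericyte-gated barcodes (adjusted p = 1.85e-04), and Pgf at 0 and 1.24 against 28.7 and 22.9 (adjusted p = 8.99e-04). Angpt2, a ligand known from sprouting endothelium, was at 11.1 and 1.24 CPM, lower than the 23.3 and 26.4 CPM of pericyte-gated barcodes (-2.18, SE 0.60, adjusted p = 0.0256), a log2 difference of -4.26 without replicate 1 and -0.98 without replicate 3. Vegfc, the ligand of Flt4, was at 53.7 and 23.6 CPM beside 25.1 and 32.7 in pericyte-gated barcodes (adjusted p = 0.602) and was higher than in all other barcodes (1.09, SE 0.39, adjusted p = 0.0442), a call lost with at least 15 UMIs of the rule genes (adjusted p = 0.131), with at least 3000 UMIs per barcode (0.210) and without the 8 members with markers of another class (0.175). The values of Vegfa, Angpt1 and Pgf rest on 3, 2 and 1 endothelial UMIs, and their pooled ratios to pericyte-gated barcodes were 0.0391 (0.00799 to 0.116), 0.0192 (0.00232 to 0.0703) and 0.0295 (0.000738 to 0.170), where the interval is the exact 95% counting interval. The 2 Vegfa UMIs and the 1 Angpt1 UMI of replicate 3 came from 1 member, among the 4 whose data went against the label.

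For arterial, venous and tip-cell identity, the class held genes of all 3 kinds. Of 14 tested genes of the Notch and arterial list, 8 were higher than in pericyte-gated, 8 than in meningeal-gated and 11 than in all other barcodes, and 1, 0 and 1 were lower. Dll4, the Notch ligand of tip and arterial cells, was at 40.7 and 48.4 CPM against 0.896 and 1.72 in pericyte-gated barcodes (4.95, SE 0.62, adjusted p = 3.15e-04), and Notch4 at 62.9 and 31.0 against 12.5 and 4.01 (2.60, SE 0.59, adjusted p = 0.0102). Jag1 did not pass against the perivascular classes, with 105 and 50.9 CPM beside 61.8 and 82.5 CPM. Hey2 was lower than in pericyte-gated barcodes, at 3.70 and 0 against 27.8 and 16.0 CPM (adjusted p = 0.0169, on 2 endothelial UMIs with a pooled ratio of 0.0721 (0.00853 to 0.272)), and Efnb2 lower than in all other barcodes, at 115 and 98.1 against 196 and 169.9 CPM (-0.79, SE 0.23, adjusted p = 0.0160).

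Of 6 tested venous genes, 4 were higher in each comparison (Aplnr, Emcn, Ephb4 and Icam1), and 2, 2 and 1 lower. Aplnr, the apelin receptor of venous and sprouting endothelium, was at 194 and 263 CPM and at 0 and 1.15 CPM in pericyte-gated barcodes, and Emcn, a sialomucin of capillary and venous endothelium, at 318 and 459 against 133 and 65.9 CPM (2.04, SE 0.58, adjusted p = 0.0301), a call that DESeq2 did not make (adjusted p = 0.323). Nr2f2, a venous regulator that is also expressed in mural cells, was lower than in pericyte-gated barcodes, at 51.8 and 104 against 319 and 239.5 CPM (-1.76, SE 0.36, adjusted p = 0.00578). Vcam1 was close to 0, at 1.85 and 0 CPM, against 30.5 and 42.4 CPM.
Of 8 tested tip genes, 4, 6 and 8 were higher and 1, 0 and 0 lower. Apln, the ligand of Aplnr and a tip-cell gene, was at 62.9 and 28.6 CPM. Pdgfb, the tip-cell factor that recruits pericytes, was at 155 and 83.2 CPM against 6.27 and 4.01 in pericyte-gated barcodes (4.57, SE 0.45, adjusted p = 8.63e-05), and Cd34 at 537 and 441 against 1.79 and 8.60 (6.40, SE 0.57, adjusted p = 5.04e-05). Mcam, shared with pericytes, differed by -1.17 from pericyte-gated barcodes (SE 0.36, adjusted p = 0.0410), and missed the threshold with the replicate block (adjusted p = 0.0538) and without the 8 members with markers of another class (adjusted p = 0.0571). Esm1, Plaur, Kcne3 and Lcp2 were too low to be tested.

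Within the 62 members with 25 or more rule-gene UMIs, Aplnr had a UMI in 20 of 23 cells of replicate 1 and 38 of 39 of replicate 3. Gja4, a connexin of arteries and capillaries, had one in 13 and 15. Both genes were seen together in 10 and 14 cells, Aplnr alone in 10 and 24, and Gja4 alone in 3 and 1. Neuron-gated barcodes thinned to 3000 UMIs had Aplnr in 0 of 2413 cells of replicate 1, which allows a share of up to 0.124%, and in 0.139% of replicate 3. These counts share the depth of each cell and carry no test.

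One member stood apart on the arterial list, and it was singled out after its values were seen. This cell of replicate 1 held 27502 UMIs, 161 of the rule genes and 233 of the check list, and 215 of the Notch and arterial list, where the next member had 77 and the median over members was 8. It carried 49 of 49 Mgp UMIs, 16 of 16 Gja5 UMIs and 11 of 11 Bmx UMIs of replicate 1, all arterial markers, and 44 of 91 of Vwf and 10 of 25 of Hey1. It had 0 UMIs of Aplnr and of Mfsd2a and 7 of Slc2a1, beside 20 of Notch1 and 24 of Jag1. Of its 54 UMIs of the neuron list, 51 were Stmn2 and 0 were Tubb3 or Dcx. The Mgp level of replicate 1 (90.7 and 0 CPM in replicates 1 and 3) thus rested on 1 cell. Its log2 fold change against all other barcodes, 7.80 (SE 1.41, adjusted p = 5.52e-04), was -0.72 without replicate 1.

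**Figure D4:**
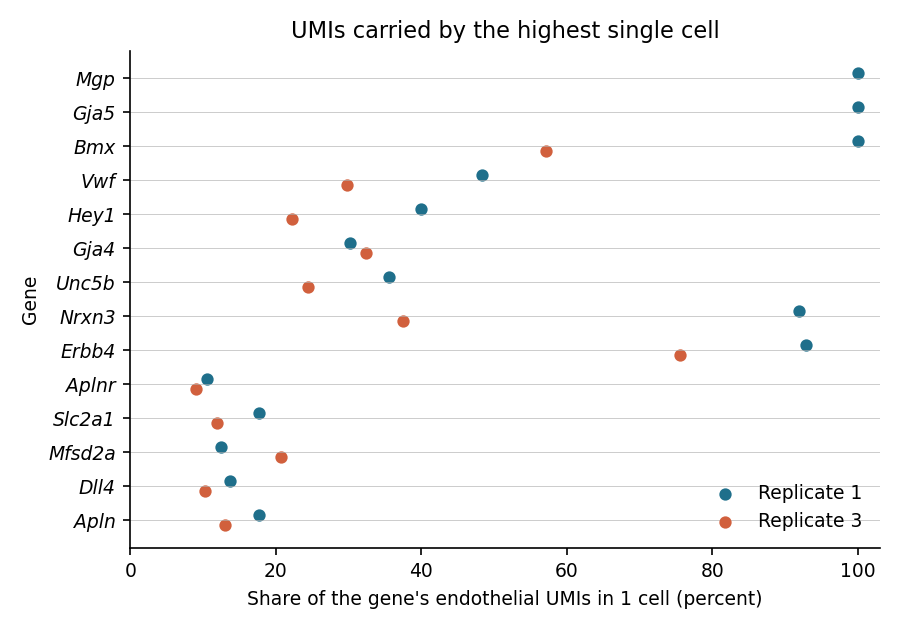
Share of a gene's endothelial UMIs found in the single highest cell (horizontal, percent) for 14 genes (vertical) in each replicate, for replicates with at least 5 UMIs of the gene. Mgp, Gja5 and Bmx of replicate 1 lie at 100%, and Aplnr and Dll4 lie far lower in both replicates.

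Nearly all transcription factors of the endothelial lineage list were higher. Of 18 tested genes, 16 were higher than in pericyte-gated, 17 than in meningeal-gated and 17 than in all other barcodes, with median log2 fold changes of 4.34, 4.80 and 6.58, where the second is 4.07 with genes absent from the meningeal-gated sums set to their lower bound. Erg and Fli1, ETS factors that maintain endothelial identity, were at 213 and 207 and 679 and 979 CPM, with 4.78 (SE 0.26, adjusted p = 9.34e-06) on the log2 scale against pericyte-gated barcodes for Fli1. Erg had 2 UMIs there (adjusted p = 1.05e-05), a pooled ratio of 299.8 (82.2 to 2488). Sox18, which with Sox7 and Sox17 forms the SOXF group, was at 242 and 128 CPM against 0.132 and 0.341 in other barcodes (9.02, SE 0.46, adjusted p = 3.89e-07), and Sox7 at 98.1 and 109 CPM with 0 UMIs in both perivascular classes. Lmo2 and Tal1, partners in a complex shared with blood progenitors, were at 516 and 494 and 48.1 and 37.3 CPM. Klf2, the shear-responsive factor, was at 422 and 337 against 21.5 and 29.2 CPM (3.90, SE 0.23, adjusted p = 9.70e-06).
Each of these genes lay above every other class in both libraries. Foxc1, a factor of meninges and pericytes, was lower than in both perivascular classes, at 46.3 and 28.6 CPM against 132 and 106 and 221 and 100.1. Of the 3 comparisons Mef2c was called against meningeal-gated barcodes, and it was at 248 and 169.6 CPM in pericyte-gated and 349 and 179 CPM in other barcodes beside 298 and 328 in endothelial. On the check list, 16, 16 and 18 of 18 genes were higher, with medians of 5.43, 6.30 (5.17 with absent genes at their bound) and 8.12. Calcrl and Tm4sf1 did not pass against the perivascular classes, with Calcrl at 90.7 and 142 beside 48.4 and 63.6 CPM and Tm4sf1 at 170.2 and 45.9 beside 85.1 and 34.4 CPM. With the replicate block Calcrl passed against pericyte-gated barcodes (adjusted p = 0.0350).

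The basement membrane was shared with the perivascular classes. Of 15 tested genes, 14 were higher and 1 lower than in all other barcodes, but 3 were higher and 6 lower than in pericyte-gated and 7 and 2 than in meningeal-gated barcodes. The median log2 fold changes were 0.02, 0.75 and 4.51. Col4a1, a chain of type IV collagen, was at 1031 and 662 CPM, below the 1648 and 1519 CPM of pericyte-gated barcodes (-0.87, SE 0.23, adjusted p = 0.0206). Lama2, the laminin chain of mural and fibroblast cells, was at 0 and 3.73 CPM against 327 and 457 (adjusted p = 1.13e-05, on 3 endothelial UMIs with a pooled ratio of 0.00548 (0.00113 to 0.0161)), while Lama4, the endothelial chain, was at 651 and 423 against 430.0 and 328 and passed against meningeal-gated barcodes (1.01, SE 0.27, adjusted p = 0.0243). Hspg2 (perlecan) was higher than in both, at 204 and 165 CPM against 43.9 and 30.9 and 37.9 and 34.8. Of the integrins, Itga6 was higher than in pericyte-gated barcodes (2.01, SE 0.36, adjusted p = 0.00285) and Itga1 lower (-0.94, SE 0.28, adjusted p = 0.0357), the latter with an adjusted p of 0.0704 without the 8 members with markers of another class.

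Of 14 tested genes for secreted signals, 3 were higher and 3 lower than in pericyte-gated, 3 and 4 than in meningeal-gated, and 7 and 3 than in all other barcodes. Over all tested genes 11.2%, 11.5% and 22.0% were higher and 12.3%, 11.6% and 23.7% lower. The small counts against the perivascular classes do not set this list apart from those shares. Kitl, the ligand of Kit, was at 379 and 322 CPM against 20.6 and 7.45 (4.77, SE 0.51, adjusted p = 1.36e-04), Tgfb1 at 92.5 and 84.4 against 34.0 and 16.6 (1.89, SE 0.31, adjusted p = 0.00185) and Hbegf at 57.4 and 90.7 against 16.1 and 13.2 (2.41, SE 0.35, adjusted p = 8.90e-04). Those were the 3 that were higher in every comparison. Cxcl12, the chemokine that guides migrating interneurons, was lower than in both perivascular classes and was not called against all other barcodes. It was at 33.3 and 13.7 CPM in endothelial, 486 and 735 in pericyte-gated and 1079 and 701 in meningeal-gated barcodes. Its log2 fold change against pericyte-gated barcodes was -4.74 (SE 0.41, adjusted p = 4.55e-05). In thinned cells Cxcl12 had a UMI in 38.5% and 61.4% of pericyte-gated and in 4.89% and 6.72% of neuron-gated barcodes. Which class supplied most of its UMIs was not tested. Igf2 and Bmp6 were also lower than in pericyte-gated barcodes, at 94.4 and 64.6 against 709.5 and 604 CPM and at 3.70 and 24.8 against 381 and 298 CPM. The 20 Bmp6 UMIs of replicate 3 came from 2 members, and the log2 fold change against pericyte-gated barcodes moved from -4.37 to -7.55 with at least 15 UMIs of the rule genes and to -8.42 without the 8 members with markers of another class.

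The study is about the DNA methyltransferase DNMT1 in migrating interneurons, and a list of genes tied to that question and to the mouse line was read in the endothelial class. Of 9 tested, 0 were higher and 1 lower than in pericyte-gated, 1 and 3 than in meningeal-gated, and 0 and 4 than in all other barcodes. Over all tested genes 11.2%, 11.5% and 22.0% were higher and 12.3%, 11.6% and 23.7% lower. Counts this small do not set this list apart from those shares. Dnmt1, the maintenance DNA methyltransferase, was at 42.6 and 60.9 CPM beside 53.3 and 54.2 in other barcodes (adjusted p = 0.941), and Dnmt3a, a de novo methyltransferase, was lower than in pericyte-gated barcodes, at 44.4 and 53.4 against 125 and 104 CPM (-1.17, SE 0.21, adjusted p = 0.00265). Mllt3 was at 237 and 224 CPM against 1120.4 and 975 (-2.19, SE 0.19, adjusted p = 1.33e-05), and Epha4, a receptor of ephrins, at 59.2 and 63.3 against 353 and 464 (-2.73, SE 0.32, adjusted p = 8.36e-05). For both genes each endothelial value lay below each value of the other barcodes.
For Nrxn3, Erbb4 and Nlgn1 single cells carried most of the UMIs in at least 1 library. Nrxn3 was at 229 and 9.94 CPM, and 114 of its 124 UMIs in replicate 1 came from 1 cell. Erbb4, the neuregulin receptor, was at 77.7 and 209 CPM, of which 1 cell in each replicate gave 39 of 42 and 127 of 168 UMIs. The first of those cells also held 22 interneuron marker UMIs, and the second was among the 4 members whose data went against the label. Nlgn1 was at 18.5 and 149 CPM, with 67 of its 120 UMIs of replicate 3 in another of those 4.

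Outside the lists, 748 genes were higher in all 3 comparisons and in both replicates. By fold change against all other barcodes the first 10 were AU021092, Vwa1, Zfp366, Rassf9, Tmem252, Cyyr1, Gimap1, Procr, Dipk2b and Gimap6, with log2 fold changes from 8.49 to 9.36. Procr, the receptor of protein C on endothelium, was at 99.9 and 67.1 CPM against 0.0494 and 0.165 (8.57, SE 0.60, adjusted p = 3.81e-06). Gimap1 and Gimap6, GTPases best known from lymphocytes, were at 90.7 and 79.5 and 181 and 159 CPM, although Ptprc, the pan-leukocyte gene, had 0 UMIs in the class. Vwa1, an extracellular matrix protein, was at 418 and 343 CPM in endothelial and 7.17 and 13.8 CPM in pericyte-gated barcodes, and Cyyr1 at 518 and 684 against 6.27 and 7.45. AU021092 was at 283 and 85.7 CPM and thus more uneven between libraries than the others.

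Calls among glycolysis genes were few. Of 9 tested, 1 was higher and 1 lower than in pericyte-gated, 1 and 0 than in meningeal-gated, and 2 and 0 than in all other barcodes, with medians of -0.00, 0.20 and 0.13. Over all tested genes 11.2%, 11.5% and 22.0% were higher and 12.3%, 11.6% and 23.7% lower. Counts this small do not set the glycolysis list apart from those shares. Pkm, pyruvate kinase, was higher than in pericyte-gated barcodes at 522 and 517 against 278 and 286 CPM (0.92, SE 0.22, adjusted p = 0.0122), and Aldoa lower at 228 and 175 against 339.5 and 322 (-0.69, SE 0.20, adjusted p = 0.0358). Genes induced by dissociation were mixed, with 1 higher and 3 lower of 14 against pericyte-gated, 6 and 2 against meningeal-gated, and 12 and 0 against all other barcodes. Fos was at 48.1 and 49.7 CPM, 112 and 124 in pericyte-gated and 14.0 and 14.8 in other barcodes. The heat shock gene Hspa1a was at 88.8 and 274 CPM, higher in replicate 3 than in replicate 1, beside 100.3 and 98.6 in pericyte-gated barcodes. The part of dissociation in the other values was not tested.

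Many endothelial cells were in cycle. With cells thinned to 3000 UMIs and 10 or more UMIs of 94 S and G2/M genes taken as cycling, replicate 1 had 9 such cells out of 25, which is 36.0% with Wilson 95% limits of 20.2 and 55.5, and replicate 3 had 19 out of 45, which is 42.2% with limits of 29.0 and 56.7. Pericyte-gated barcodes gave 34.6% and 37.0%, meningeal-gated barcodes 33.3% and 31.4%, and neuron-gated barcodes 9.20% and 12.6%. The neuron-gated class was chosen by Neurod2 and Neurod6 alone. Its highest cells had 115 and 132 cycle UMIs, above the endothelial 52 and 72. It is therefore a reference that may hold cells in cycle, not a background free of them. The endothelial intervals lay above the neuronal ones (8.11 to 10.4 and 11.5 to 13.9) and held the shares of the perivascular classes. They cover counting error over cells only and are no test between classes, which 2 libraries do not allow. Median cycle UMIs were 7 and 8 in endothelial and 5 and 5 in neuron-gated cells. At a limit of 5 UMIs many neuron-gated cells would therefore pass as well. The UMI count had no gap at the limit, as 5 and 11 endothelial cells had 8 to 11 UMIs, so the class is a range and not a type. With 5 UMIs as the limit the mean share of 39.1 ± 4.40% (SD, n = 2) became 78.7%, and with 15 it became 29.6%. The 19 cells of replicate 3 included members whose data went against the label, at 37, 62 and 10 cycle UMIs. Without the members with 8 or more UMIs of another class the mean share was 35.9%. That set is not the same as the members whose data went against the label. It keeps the cell at 10 cycle UMIs and drops clear endothelial cells, such as 1 with 211 rule-gene and 203 check-list UMIs. The share without exactly the members against the label was not computed. Among genes of the cycle lists, 1 of 41 S-phase and 1 of 51 G2/M genes were higher and 0 and 6 lower than in pericyte-gated barcodes. Over all tested genes 11.2% were higher and 12.3% lower in that comparison.

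**Figure D5:**
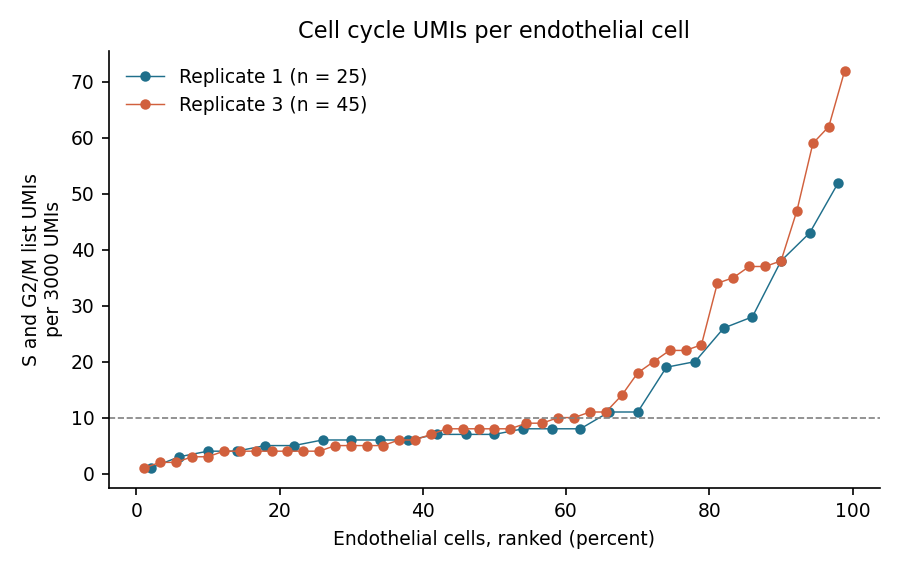
S and G2/M list UMIs per 3000 UMIs (vertical) of each endothelial cell, ranked (horizontal, percent of cells), in replicate 1 (25 cells) and replicate 3 (45 cells), with the dashed line at 10. The curves rise without a step at the line, to 52 and 72 UMIs.

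Cycling and other endothelial cells were compared over 5485 genes outside the cycle lists. The same cells were split by their own cycle-list UMIs, so genes that vary with those lists are expected among the calls. Their p-values are no independent support for the split. There were 67 genes (1.22%) higher and 5 (0.0912%) lower in cycling cells at an adjusted p under 0.05, all 72 in the same direction in both replicates, and the median over all genes was -0.00. The 5 genes named first are cell-cycle genes that the lists lack. Pclaf, a PCNA-binding factor, was at 336 and 499 CPM in cycling and 0 and 4.44 CPM in other endothelial cells (adjusted p = 7.38e-04), a pooled ratio of 164 (44.8 to 1358). The histone genes Hist1h2ap and Hist1h2ae were at 383 and 251 against 6.53 and 0 CPM and 340.1 and 356 against 3.26 and 8.88 CPM, and Hist1h1b and the kinesin Kif15, with 0 UMIs in non-cycling cells, were at least 36.5-fold and at least 25.4-fold higher over the pooled sums.
Among endothelial list genes, none of the 8 junction, 16 transporter, 7 Wnt receptor and 13 Wnt target genes tested passed. With 1.22% higher and 0.0912% lower over all genes, this does not set these lists apart. Unc5b, a netrin receptor of arterial and tip endothelium, was lower in cycling cells at 12.9 and 2.99 against 137 and 71.0 CPM (-2.99, SE 0.64, adjusted p = 0.0277). Dnmt1 was higher at 77.5 and 126 against 16.3 and 15.5 CPM (2.36, SE 0.43, adjusted p = 0.0195), and its adjusted p was 0.126 without the 8 members that carry markers of another class. Erbb4, with 168 and 433 against 9.79 and 28.9 CPM (3.59, SE 0.56, adjusted p = 0.0117), was too low to be tested without them.
These counts depended on the setting. Without the 8 members they fell to 26 higher and 2 lower, with the replicate block, which pairs the sums of 1 library, they were 145 and 64, and with 5 cycle UMIs as the limit none passed by edgeR in either direction. At an unadjusted p under 0.05 there were 694 genes, and DESeq2 called 47 higher and 6 lower.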

How the data were processed

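Single-cell RNA-seq of 2 wild-type libraries was analysed. The authors deposited raw UMI count matrices of 32285 genes per cell barcode, made per the submitters' processing notes with Cell Ranger 7.0.0 on mm10, and the annotation, intron setting and cell calling are not given in the sources used here. The rule of the opening was applied to these counts. Endothelial members and gene lists (394 of 395 genes found) were chosen with earlier results of these data known. Doublets were ranked per library with Scrublet in scanpy 1.11.5, at 0.8% per 1000 barcodes. Neuron-gated barcodes had at least 10 UMIs of Neurod2 and Neurod6 and were in no other class.

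Raw counts were summed per class and replicate, low genes were removed with filterByExpr, and edgeR 4.0.16 (R 4.3.3) tested each contrast with its quasi-likelihood test, TMM scaling and Benjamini-Hochberg adjustment over all tested genes, pooling the spread of all classes. SE is that of the log2 fold change. Both fitting steps were tested on simulated data. Each list gene that was called could be named, with some that were not, and outside the lists the 10 largest changes against all other barcodes and the 5 largest in the cycling comparison. Single cells, and the genes named for them, were chosen after their values were seen. Sums of 1 library share its number, and their deviations from the class means correlated across 11310 genes with r = 0.000516, 0.0393 and 0.0936 between the endothelial class and the pericyte-gated, meningeal-gated and other barcodes, and with r = 0.308 between cycling and other endothelial cells. Alternatives were DESeq2 1.42.0, library-size scaling, no filter on low counts, the replicate block, other minimum UMIs, doublets left out and each replicate left out. Some alternatives were added after seeing the data.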

Additional observations from a re-analysis of the deposited data

How the results depend on the processing

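The counts of genes higher or lower in the 3 class comparisons stayed within 1.5 times of their values under each alternative that gave a test, the replicate block included, at 1215 to 1558 and 1363 to 1736 against pericyte-gated, 1210 to 1470 and 1295 to 1668 against meningeal-gated, and 2423 to 2856 and 2387 to 3586 against all other barcodes. In the cycling comparison, 67 higher and 5 lower became 259 and 86 with no filter on low counts, 145 and 64 with the replicate block, 0 and 0 with at least 5 cycle UMIs, 26 and 2 without members holding 8 or more UMIs of another class, and 63 and 3 with at least 15 UMIs of the rule genes, the last 2 settings chosen after seeing the data. The cycling share of 39.1% became 78.7% with 5 and 29.6% with 15 cycle UMIs and 51.0% with 1500 UMIs per cell and 5 cycle UMIs. The cause of these moves was not tested. With 1 replicate left out it ran from 36.0% to 42.2%, and the endothelial share from 0.477% to 0.722%.

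Among the values printed, those that turned belonged to genes not called, apart from Mgp. Over all called genes the direction was the same in both replicates for 2647 of 2653 against pericyte-gated, 2602 of 2605 against meningeal-gated and 5144 of 5161 against all other barcodes. Leaving out 1 replicate gave -0.0864 to 0.42 for Id3, -0.65 to 0.85 for Jag1, -0.58 to 1.11 for Nkd1, -0.15 to 0.37 for Tnfrsf19, -0.42 to 1.17 for Vegfc and -0.10 to 1.53 for Hspa1a against pericyte-gated barcodes. Against all other barcodes it gave -0.30 to 0.22 for Dnmt1, -0.20 to 0.92 for Mef2c and -0.72 to 8.68 for Mgp. Without members holding markers of another class Jag1 was at -0.26 and Vegfc at -0.10 against pericyte-gated barcodes and Mgp at -0.79 against all other barcodes, and Dnmt1 against all other barcodes was at 0.0186 with DESeq2 and 0.0367 without predicted doublets. With 80 cells, genes of 1 to 3 UMIs are known only to the counting intervals given.

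Of 87 called log2 fold changes of named genes, 28 moved by more than 1.5 times when 1 replicate was left out, and Mgp alone turned. Against pericyte-gated barcodes the range was -4.26 to -0.98 for Angpt2, 7.78 to 10.60 for Aplnr, -6.56 to -3.53 for Bmp6, 5.72 to 8.20 for Cd34, -5.69 to -3.78 for Cxcl12, 1.34 to 2.85 for Emcn, 7.44 to 10.73 for Erg, 2.20 to 3.54 for Fzd4, -7.48 to -2.79 for Hey2, 4.27 to 5.47 for Kitl, -11.27 to -6.86 for Lama2, -2.54 to -1.15 for Nr2f2, -7.77 to -4.06 for Pgf, 7.71 to 9.34 for Ptprb, 9.44 to 12.12 for Slc38a5, 1.37 to 2.43 for Tjp1, -8.88 to -3.87 for Vcam1 and 4.68 to 5.92 for Vwa1. Against meningeal-gated barcodes the range was 1.26 to 2.28 for Lef1. Against all other barcodes the range was 8.20 to 10.22 for AU021092, 3.19 to 4.45 for Lef1, 3.69 to 5.06 for Mfsd2a, 6.31 to 8.42 for Ocln, 8.09 to 9.17 for Procr, 9.18 to 10.28 for Slc38a5, 8.27 to 9.90 for Sox18 and 0.22 to 2.003 for Vegfc. Under other settings, called values that moved this far were, against pericyte-gated barcodes, Bmp6 at -8.42, Vcam1 at -8.42, Hey2 at -7.63, Angpt1 at -6.36 and Igf2 at -3.70 without members holding markers of another class, Bmp6 at -7.55, Angpt1 at -6.40 and Vegfa at -5.91 with at least 15 UMIs of the rule genes, and Kitl at 5.50 without predicted doublets. Vegfa was at -6.30 against meningeal-gated barcodes with at least 15 UMIs of the rule genes. DESeq2 gave 10.18 for AU021092, 9.23 for Mgp, 9.60 for Procr and 9.64 for Sox18 against all other barcodes. In the cycling comparison DESeq2 gave 5.78 for Hist1h2ae, 6.92 for Hist1h2ap, 7.37 for Pclaf and -3.77 for Unc5b, the limit of 5 cycle UMIs gave 1.55 for Erbb4, 3.20 for Hist1h2ae and -1.89 for Unc5b, and leaving out members holding markers of another class gave 4.01 for Hist1h2ae and 4.15 for Hist1h2ap.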
